A study of Mus musculus with 2 samples.

Results

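A set of 10 named genes of detoxification and redox defence were followed through the squamous and columnar epithelium of the mouse esophagus, gastro-esophageal squamocolumnar junction (GE-SCJ) and stomach. They are Adh7, Adh1, Aldh3a1, Gsta4, Gsto1, Gstm1, Gpx2, Nqo1, Txn1 and Prdx6, 10 of the 19550 genes in the count table. The set was chosen by name, with earlier results of these data known. Wild-type C57BL/6 mice were sampled at embryonic day 15 (E15), at E19, 2 days after birth (pup) and at 8 weeks (adult), with no treatment. Cells of each region and stage received 1 oligonucleotide tag, were pooled and were sequenced together, and 11 tags were found, with no adult stomach among them. The series text gives 6 mice at E15, 2 at E19, 2 pups and 3 adults, whereas the methods combine 3 mice. No cell carries the identity of its mouse, so every group is 1 pooled sample, no spread between animals exists and no difference was tested.

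The 10 genes cover successive steps by which an epithelium handles reactive compounds. Adh7 and Adh1 are alcohol dehydrogenases, which oxidise ethanol and retinol to aldehydes, and Aldh3a1 is an aldehyde dehydrogenase that oxidises aldehydes further, well known from the cornea. Gsta4, Gsto1 and Gstm1 are glutathione transferases of the alpha, omega and mu classes. Gpx2 is a selenium-dependent glutathione peroxidase of epithelia, Nqo1 a quinone reductase, Txn1 the cytosolic thioredoxin that reduces protein disulfides, and Prdx6 a peroxiredoxin that removes hydroperoxides. Several of these genes, Nqo1 best known among them, are targets of the stress-responsive factor NRF2, encoded by Nfe2l2. The squamous lining of the esophagus and the gastric mucosa both meet swallowed or secreted irritants once feeding begins.

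Levels are given in CPM, the unique molecular identifiers (UMIs) that a gene had in a group, scaled to 1000000 UMIs, with exact 95% Poisson intervals where shown. Log2 ratios were taken between summed UMIs with 1 UMI added to each, with exact 95% intervals in parentheses. Both kinds of interval cover counting error only. A gene entered a count where both groups together held at least 100 UMIs, and it was called where the groups differed at least 2-fold. By the deposited class labels, 730 of the 7808 cells were squamous and 1540 columnar. Squamous groups held between 34 and 232 cells, and columnar groups between 53 and 366. The 19 adult columnar cells of the GE-SCJ, 46 columnar cells of the esophagus and 12 squamous cells of the stomach entered no comparison. The authors clustered these same data and named the clusters by known markers, so marker levels describe the groups and do not check the labels. The summed level of 8 squamous markers was at least 6126 CPM in each squamous group and at most 120 CPM in each columnar group. The summed level of 10 columnar markers was 5425 to 22186 CPM in columnar groups and 527 to 3222 CPM in squamous groups. With classes taken from marker genes, the E15 GE-SCJ held 40 squamous and 75 columnar cells, in place of 47 and 53. At E19 the GE-SCJ then held 28 squamous cells in place of 34. Immune cells, which served as a measure of free RNA for genes they should lack, numbered 82, 180, 86 and 6 from E15 to adult.

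Together the 10 genes took a larger share of the transcriptome at E19 than at E15 in all 4 series of groups. In esophageal squamous cells their share of all UMIs was 0.176%, 0.709%, 2.46% and 0.693% from E15 to adult. The pup value came mostly from Gsto1, described separately below. In GE-SCJ squamous cells the shares were 0.257%, 0.874%, 0.871% and 0.797% in the same order. Columnar cells held 0.275%, 0.425% and 0.382% in the GE-SCJ from E15 to pup and 0.308%, 0.443% and 0.410% in the stomach. Both columnar values lay above both squamous values at E15 and below them at E19 and in the pup. At E19 Gsto1 held 8577 of the 12111 member UMIs in esophageal and 2931 of 4709 in GE-SCJ squamous cells. In columnar cells it held 6208 of 30445 in the GE-SCJ and 9013 of 42267 in the stomach, so the E19 order rested on that gene.

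In adult esophageal squamous cells 7 of the 9 members that could be counted stood at least 2-fold above E15, and none below. Over all 5293 genes counted in that comparison, 29.3% were called in either direction and 11.3% were higher in the adult. The median log2 ratio was 2.88 over the 9 members and -0.38 over all genes. As the members were chosen with earlier results of these data known, such contrasts with all genes describe the set and test nothing. In GE-SCJ squamous cells 8 of 9 members were higher in the adult, beside a background of 29.6% in either direction and 11.8% higher, with a member median of 2.16 against -0.31. Columnar cells could be followed only to the pup. There 7 of 10 members were higher than at E15 in the GE-SCJ (background 27.7%, of which 8.41% higher) and 5 of 10 in the stomach (27.9%, of which 8.97% higher). None was called lower in any of these 4 comparisons, but Adh1 had too few UMIs to be counted in either squamous one. In the esophagus it had 54 UMIs at E15 and 39 in the adult, at 55.0 and 12.2 CPM. With a limit of 20 UMIs, 8 members were called in that comparison, Adh1 among them as lower in the adult. Several calls ended under other settings. With CPM averaged over cells, Txn1 went from a log2 ratio of 1.01 to 0.91 in the esophagus and from 1.21 to 0.93 in GE-SCJ squamous cells. With library sizes that left out mitochondrial, ribosomal protein and hemoglobin genes, Gsto1 in the stomach went from 1.01 to 0.92. That setting also took the count in esophageal squamous cells from 7 to 6. With each cell thinned to 5000 UMIs, Adh1 in GE-SCJ columnar cells went from 1.71 to 0.67. Thinning also took the GE-SCJ squamous count from 8 to 7. Without the top 1% of cells per gene, Gsto1 in GE-SCJ squamous cells lost its call, as given with that gene. The stomach count then fell from 5 to 4.

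**Figure D1:**
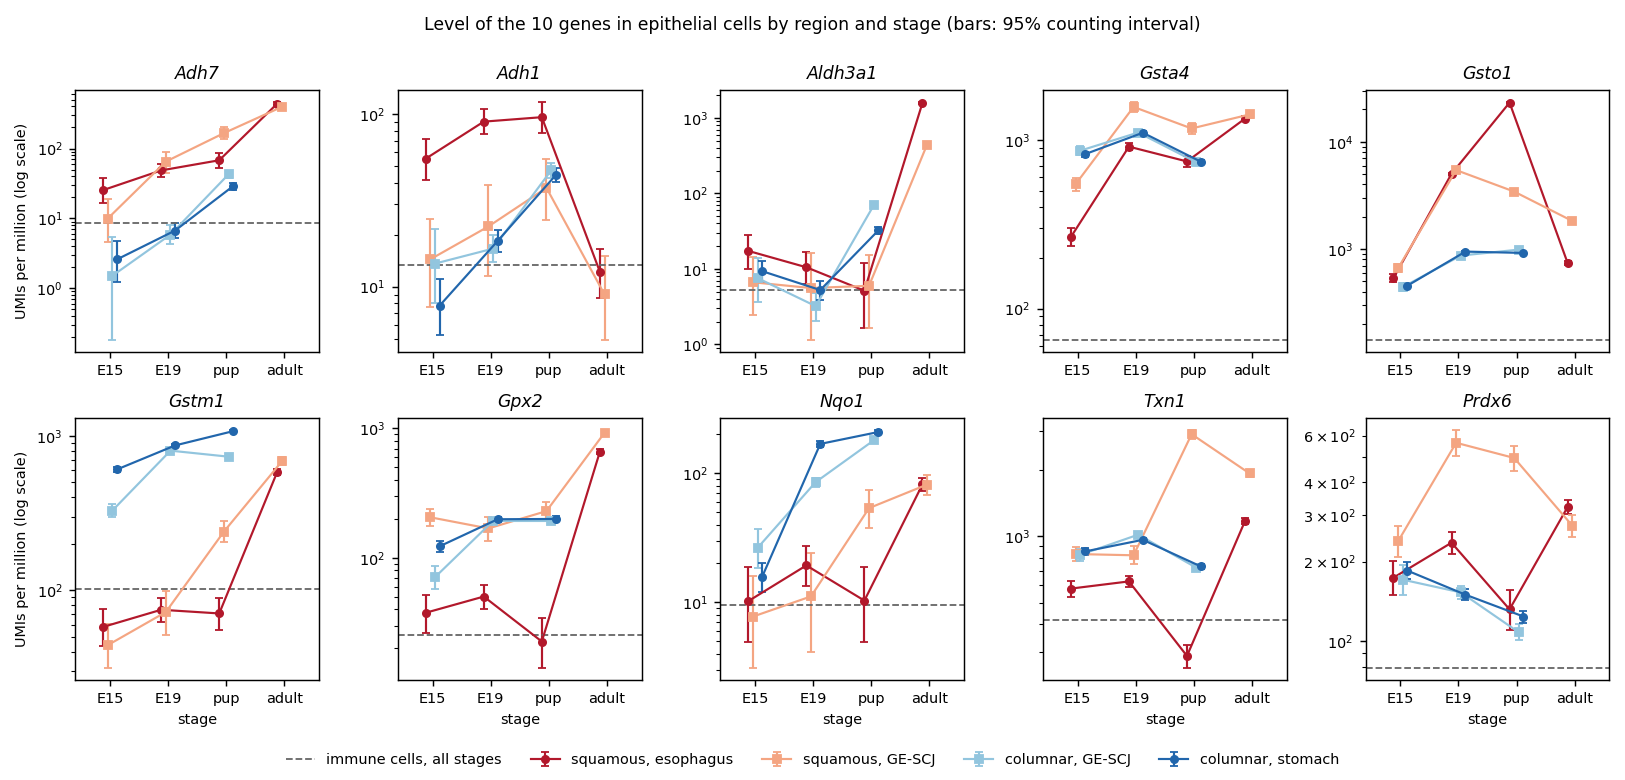
Level of each gene (CPM, log axis) against stage in squamous cells of the esophagus and GE-SCJ and columnar cells of the GE-SCJ and stomach. Points are 1 pooled sample each, bars are 95% counting intervals, and the dashed line is the level in immune cells of all stages. Aldh3a1 stays near the dashed line in squamous cells before the adult and in columnar cells before birth, whereas Gsto1 peaks at 23179 CPM in the pup esophagus.

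Among the dehydrogenases, Adh7 (chromosome 3, 138217760 to 138233382, GRCm38) was highest in adult squamous cells. Its level in the esophagus was 25.4, 48.6, 67.9 and 440 (417 to 463) CPM from E15 to adult. In GE-SCJ squamous cells it was 9.95, 65.0, 166 and 395 (364 to 427) CPM. Those 2 adult values were the highest of the 14 epithelial groups, and their intervals overlapped. The log2 ratio of adult to E15 was 4.06 (3.50 to 4.67) in the esophagus and 5.16 (4.27 to 6.23) in the GE-SCJ. Early values rested on few cells. At E19, 56 of the 83 UMIs in the esophagus lay in 1 cell, without which the level was 16.2 CPM, and at E15 7 of the 9 UMIs in the GE-SCJ lay in 1 cell.

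Columnar cells began with next to no Adh7. Levels from E15 to pup were 1.51, 5.86 and 42.7 CPM in the GE-SCJ, and 2.59, 6.70 and 29.0 CPM in the stomach, beside 8.50 CPM in immune cells of all stages. Columnar values before birth were therefore at or under the level of cells that should lack the gene, while the pup columnar values lay above it. After thinning each cell to 5000 UMIs, 74.3% of adult esophageal squamous cells, 13.7% of pup GE-SCJ columnar cells and 1.58% of immune cells held an Adh7 UMI. Median depths before thinning were 11996 UMIs in squamous, 25118 in columnar and 8266 in immune cells.

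Aldh3a1 (chromosome 11, 61207537 to 61218421) appeared late in both epithelia. In esophageal squamous cells it was 17.3, 10.5 and 5.14 CPM from E15 to pup and 1580 (1537 to 1624) CPM in the adult. GE-SCJ squamous cells gave 6.64, 5.57, 5.97 and 444 (412 to 479) CPM. The 6 earlier squamous groups lay between 5.14 and 17.3 CPM, beside 5.31 CPM in immune cells, so only the adult groups stood clearly above cells that should lack the gene. The log2 ratio of adult to pup was 8.00 (6.88 to 9.45) in the esophagus and 5.90 (4.67 to 7.53) in the GE-SCJ. Of the 17 UMIs at E15 in the esophagus, 10 lay in 1 cell that held 1164 UMIs in all. That cell decided the size of the ratio of adult to E15, which was 6.43 (5.77 to 7.19) from summed UMIs and 2.36 when CPM was taken per cell and then averaged.

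Between the adult regions, Aldh3a1 was higher in the esophagus than in the GE-SCJ by a log2 ratio of 1.83 (1.71 to 1.95). In that comparison 2 of 9 counted members differed at least 2-fold, against 4.53% of all genes. The other was Gsto1, at 740 against 1824 CPM. Without 1 cell the GE-SCJ held 991 CPM of Gsto1, within 2-fold of the esophagus. Medians over single cells lay closer for Aldh3a1, at 274 CPM in the esophagus and 174 in the GE-SCJ. Columnar cells of the pup also carried it, at 69.4 CPM in the GE-SCJ and 32.3 in the stomach, against 3.21 and 5.24 CPM at E19. It was the 1 member that differed at least 2-fold between pup columnar cells of stomach and GE-SCJ, with a log2 ratio of -1.10 (-1.30 to -0.91) and a background of 1.62%. That call ended, at -0.77 and -0.92, when CPM was averaged over cells and when cells were thinned. At E15 and E19, 0 of 6 and 0 of 9 members did, beside 1.62% and 1.60% of all genes.

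Adh1 (chromosome 3, 138260991 to 138290698, next to Adh7) ran the other way in squamous cells. Esophageal levels were 55.0, 90.1 and 95.6 CPM from E15 to pup and 12.2 (8.64 to 16.6) CPM in the adult. The adult value lay below all 3 earlier ones, with a log2 ratio of adult to pup of -2.95 (-3.53 to -2.41). GE-SCJ squamous cells were at 14.4, 22.3, 37.3 and 9.02 CPM, and 12 of the 13 neighbouring pairs in the order of all 14 groups had overlapping intervals. Fibroblasts held 52.5 CPM of Adh1, and 6 fibroblast markers summed to 1869, 1342, 363 and 516 CPM in esophageal squamous cells from E15 to adult. Immune cells held 1.97, 2.88 and 69.1 CPM of Adh1 from E15 to pup and 13.3 CPM over all stages, and the 42 UMIs of the pup lay in 9 of 86 cells. The part of RNA from other cells in the Adh1 values was not tested. In columnar cells the level increased from 13.6 at E15 to 47.0 CPM in the pup in the GE-SCJ and from 7.77 to 44.2 CPM in the stomach, above immune cells of the same stage at E15 and below them in the pup.

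**Figure D2:**
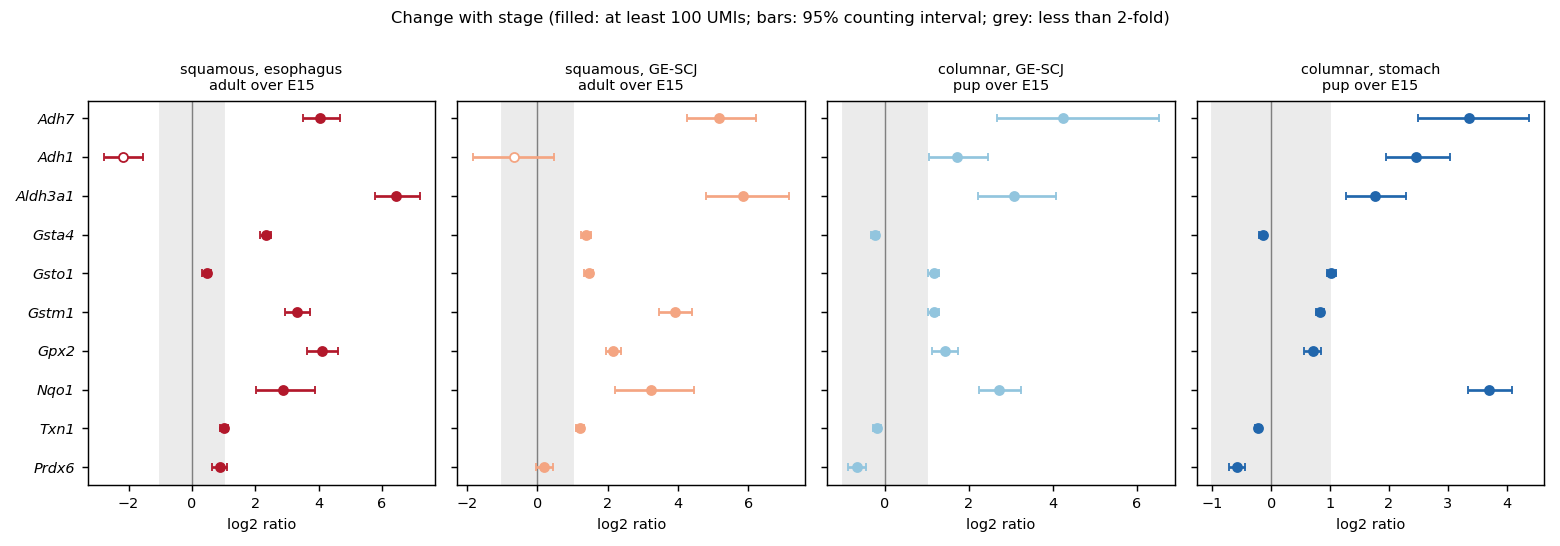
Log2 ratio of each gene between the last and the first stage available, for 2 squamous and 2 columnar groups, with 95% counting intervals. Filled points had at least 100 UMIs over both groups, and the grey band marks less than 2-fold. Adh7, Aldh3a1 and Nqo1 lie to the right of the band in all 4 panels, while Prdx6 lies inside it in all 4.

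The 3 glutathione transferases each followed a different course. Gsta4 (chromosome 9, 78182774 to 78209349), which conjugates lipid peroxidation aldehydes such as 4-hydroxynonenal, was already abundant before birth. Esophageal squamous cells held 266, 913, 746 and 1339 CPM from E15 to adult, and GE-SCJ squamous cells 546, 1570, 1170 and 1417 CPM. In the pup esophagus, 548 of the 726 UMIs lay in 29 cells of a second squamous label, described below with Gsto1. The other 56 cells held 312 CPM, near the E15 level. In the summed levels the largest step came between E15 and E19, with log2 ratios of 1.78 (1.59 to 1.97) and 1.52 (1.36 to 1.68). Medians over single esophageal cells were 157, 270, 201 and 571 CPM from E15 to adult and rose most from pup to adult. From the 312 CPM of pup cells outside the second label, the rise to the adult also exceeded the summed step before birth. GE-SCJ medians were 429, 981, 641 and 975 CPM, with the largest rise from E15 to E19. Columnar cells moved less, at 864, 1107 and 738 CPM in the GE-SCJ and 823, 1104 and 743 CPM in the stomach. Each columnar region thus had its highest value at E19, and the ratio of pup to E15 stayed within 2-fold. Immune cells held 65.4 CPM.

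Gstm1 (chromosome 3, 108012255 to 108017973) separated the epithelia before birth. In esophageal squamous cells it was 58.0, 74.9 and 70.9 CPM from E15 to pup and 586 (560 to 614) in the adult. GE-SCJ squamous cells held 44.2 and 72.4 CPM before birth, 240 in the pup and 685 (645 to 728) in the adult. Apart from the pup GE-SCJ, the 5 squamous groups before the adult lay below the 102 CPM of immune cells. Columnar cells held 329, 803 and 734 CPM in the GE-SCJ and 607, 868 and 1074 in the stomach, so that every columnar group exceeded every squamous group taken before the adult. Between 79.2% and 89.6% of columnar cells per group had a Gstm1 UMI after thinning, against 27.7% of immune cells and 93.0% of adult esophageal squamous cells. Mu and alpha class genes have close paralogs, and reads that match several of them may not have been counted.

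Gsto1 (chromosome 19, 47854970 to 47864790), an omega class enzyme with reductase activity, had its maximum around birth in squamous cells. Esophageal levels were 533 CPM at E15, 5018 at E19, 23179 (22878 to 23484) in the pup and then, in the adult, 740 (711 to 771). GE-SCJ squamous cells held 661, 5439, 3426 and 1824 CPM. Of the adult GE-SCJ UMIs, 1343 of 2831 lay in 1 cell, and without the top 1% of cells the log2 ratio of adult to E15 there was 0.74 in place of 1.46, which ends its call. In the summed levels the step from E15 to E19 was much alike in both regions, at log2 ratios of 3.23 (3.10 to 3.36) and 3.04 (2.91 to 3.17). Medians over single cells rose from 342 to 566 CPM in the esophagus and from 539 to 1601 in the GE-SCJ. The summed E19 level of the esophagus lay above the upper quartile of its cells, 2518 CPM. In the pup, the summed level of the esophagus exceeded that of the GE-SCJ by 2.76 (2.70 to 2.82). Columnar cells lay between 440 and 985 CPM in all 6 groups. The log2 ratio of pup to E15 there was 1.16 (1.04 to 1.28) in the GE-SCJ and 1.01 (0.94 to 1.09) in the stomach.

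The pup peak of Gsto1 sat in few cells. Squamous cells carry 2 deposited labels, and the second held 40 of the 730 cells, 29 of them in the pup esophagus. In those 29 cells Gsto1 made up 5.49% of all UMIs, or 54878 CPM, with 2.22% in the lowest cell, 5.78% in the median cell and 9.99% in the highest. The other 56 squamous cells of the pup esophagus held 874 CPM. So 22046 of the 22545 Gsto1 UMIs of the group (97.8%) came from the 29 cells, and without them the log2 ratio of pup to E15 was 0.71 in place of 5.44. The ratio of pup to E19 turned from 2.21 to -1.94, and that of pup esophagus to pup GE-SCJ from 2.76 to -1.14.

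The same label was rare elsewhere. It held 3 cells at 57999 CPM of Gsto1 in the E19 esophagus, 4 cells at 22324 CPM in the E19 GE-SCJ, 2 cells at 71280 CPM in the pup GE-SCJ and 1 cell at 87224 CPM in the adult GE-SCJ. First-label cells alone still had 3354 CPM at E19 in the esophagus and 2971 in the GE-SCJ, so the difference from E15 remained there at log2 ratios of 2.65 and 2.17. In the median first-label cell of the esophagus, Gsto1 made up 0.0342% of UMIs at E15 and 0.0552% at E19. In the GE-SCJ these shares were 0.0539% and 0.149%.

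In the pup esophagus only Gsto1, Gsta4, Txn1 and Prdx6 had enough UMIs over both labels to be counted. Txn1 and Prdx6 were at least 2-fold lower in the second label, as were 46.8% of all genes. Txn1 was 52.3 CPM against 454 in first-label cells, a log2 ratio of -3.06 (-3.76 to -2.43), and Prdx6 22.4 against 208 CPM. Adh7, Adh1, Gstm1 and Gpx2 were also lower but had too few UMIs to be counted. Adh7 was 2.49 against 114 CPM (1 and 65 UMIs), and Adh1 had no UMI against 163 CPM (93 UMIs). Gstm1 was 27.4 against 102 CPM (11 and 58 UMIs) and Gpx2 4.98 against 35.0 CPM (2 and 20 UMIs). Only Gsta4 joined Gsto1 among the 10, at 1364 against 312 CPM, a log2 ratio of 2.12 (1.88 to 2.38). Of 14 other pathway genes that could be counted between the labels, 8 were at least 2-fold lower in the second and 2 higher, where 46.8% of all genes were lower and 26.7% higher. The lowest ratios were those of Cyp2f2, a P450 enzyme, at 19.9 against 1049 CPM, Glrx3, a glutaredoxin, at 2.49 against 175, and the peroxidase Gpx1 at 14.9 against 266. Higher were Prdx5, a mitochondrial and peroxisomal peroxiredoxin, at 739 against 47.3 CPM, and Txnrd1, the cytosolic thioredoxin reductase, at 406 against 33.3 CPM. These 5 were named after their values were seen.

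Levels of squamous keratins and mesothelial markers also differed between the labels. Genes of suprabasal squamous cells (Krt4, Krt13 and 4 others) summed to 8309 CPM in the second label and 2450 in the first. Most of that was Krt13, at 6915 against 1456 CPM, while Krt4 stayed within 2-fold at 1302 against 876. Genes of basal cells (Krt5, Krt14 and 3 others) summed to 1464 and 4693 CPM, of which Krt15 held 1449 and 2887. Krt5 itself was 12.4 against 732 CPM and Krt14 2.49 against 406. Median depth was 11550 against 8504 UMIs per cell. Of 3 mesothelial markers, the summed level was 1006 CPM in the second label and 14.0 in the first, and their part in the Gsto1 difference was not tested.

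**Figure D3:**
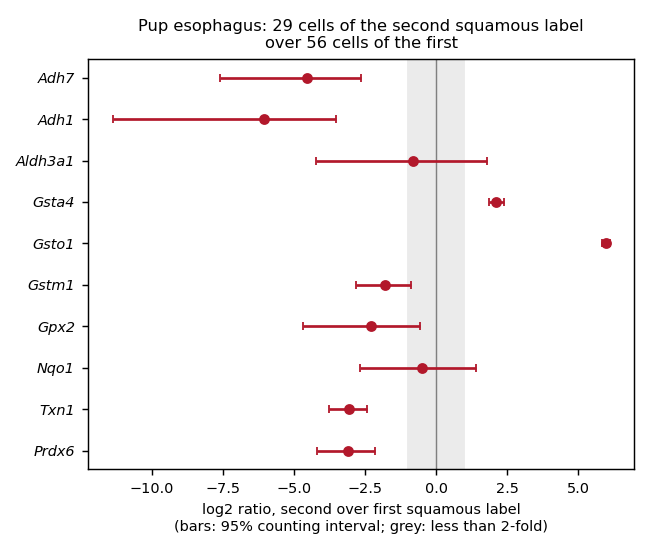
Log2 ratio of each gene between 29 cells of the second and 56 cells of the first squamous label in the pup esophagus, with 95% counting intervals and a grey band for less than 2-fold. Gsto1 (5.97) and Gsta4 (2.12) lie on the right, and 6 genes (Adh7, Adh1, Gstm1, Gpx2, Txn1 and Prdx6) lie left of the band. Of these 6, only Txn1 and Prdx6 had at least 100 UMIs over both labels. Adh1 had no UMI in the second label, so its point depends on the 1 UMI added.

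Among the peroxidases, reductases and thioredoxin, Gpx2 (chromosome 12, 76792333 to 76795554) differed between squamous cells of the esophagus and the GE-SCJ. The difference was at least 2-fold at each stage before the adult, as for no other member counted at each of them. Adh1, not counted at E15, was higher in the esophagus at these stages, at 55.0 against 14.4, 90.1 against 22.3 and 95.6 against 37.3 CPM. Of Gpx2, esophageal cells held 37.7, 50.3 and 22.6 CPM from E15 to pup, where GE-SCJ squamous cells held 206, 169 and 230 CPM. The log2 ratio of esophagus to GE-SCJ was -2.42 (-2.96 to -1.91), -1.75 (-2.19 to -1.31) and -3.29 (-3.99 to -2.65) at those stages. In the same comparisons 2 of 5, 3 of 8 and 7 of 8 counted members differed at least 2-fold, against 4.39%, 7.45% and 25.2% of all genes. In the adult the levels were 661 and 926 CPM, within 2-fold of each other. Immune cells held 25.2 CPM, so the esophageal values before the adult were close to that of cells that should lack the gene, and 51 of the 86 UMIs at E19 lay in the same 1 cell that held most Adh7. Columnar levels were 71.0, 193 and 193 CPM in the GE-SCJ and 123, 199 and 200 CPM in the stomach, flat from E19 to pup.

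Nqo1 (chromosome 8, 107388225 to 107403206) was higher in columnar than in squamous cells at E19 and in the pup, and no adult columnar group entered a comparison. Stomach columnar cells held 15.8, 169 and 209 CPM from E15 to pup, and GE-SCJ columnar cells 26.4, 85.4 and 180 CPM. The E15 to E19 step in the stomach, a log2 ratio of 3.40 (3.03 to 3.79), was the largest among the 8 members counted there, of which 3 were called, against 5.80% of all genes. Squamous levels were 10.2, 19.3, 10.3 and 81.9 CPM in the esophagus and 7.74, 11.1, 53.7 and 81.8 CPM in the GE-SCJ. Immune cells held 9.56 CPM, close to the values of 7.74 to 11.1 CPM in 4 of the 5 lowest squamous groups. Intervals of the 2 adult squamous values overlapped.

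Txn1 (chromosome 4, 57943373 to 57956411) was present in every group and in immune cells at 417 CPM. Its highest level was 2887 (2760 to 3019) CPM in pup GE-SCJ squamous cells and its lowest 288 (255 to 324) CPM in the pup esophagus. The remaining squamous values were 580, 625 and 1171 CPM in the esophagus at E15, E19 and adult, and 831, 820 and 1919 CPM in the GE-SCJ. Between E19 and pup the 2 squamous regions therefore moved in opposite directions. In the pup esophagus the 29 second-label cells held 52.3 CPM and the other 56 cells 454 CPM. Without the second label the esophageal fall came within 2-fold, as given among the flagged results. Columnar cells stayed between 721 and 1016 CPM in all 6 groups, without a 2-fold difference between stages.

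Prdx6 (chromosome 1, 161240112 to 161251219) stayed within 2-fold between the first and the last stage in all 4 groups. Esophageal squamous cells held 174, 236, 132 and 322 CPM and GE-SCJ squamous cells 239, 564, 494 and 274 CPM. Adults had the highest esophageal level, whereas GE-SCJ levels peaked around birth. Columnar levels decreased from 171 to 108 CPM in the GE-SCJ and from 185 to 124 CPM in the stomach between E15 and pup, less than 2-fold.

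Squamous and columnar cells of the GE-SCJ itself share tissue, stage and tag, and more members set them apart at later stages, as did more of all genes. At E15, 2 of 6 counted members differed at least 2-fold, against 9.67% of all genes. Gpx2 was higher in squamous cells by 1.53 (1.16 to 1.90) on the log2 scale, and Gstm1 was lower, with a log2 ratio of -2.86 (-3.36 to -2.40). Gsta4, Gsto1, Txn1 and Prdx6 stayed within 2-fold, at -0.66, 0.59, 0.01 and 0.48, and Adh7, Adh1, Aldh3a1 and Nqo1 had too few UMIs to be counted. At E19, 4 of 8 differed (background 18.2%). Gsto1 and Prdx6 were higher in squamous cells, at 2.65 (2.59 to 2.71; 1.78 without second-label cells) and 1.89 (1.70 to 2.07), while Gstm1 and Nqo1 were lower, at -3.44 (-3.92 to -2.99) and -2.72 (-4.04 to -1.67). Adh1, Gsta4, Gpx2 and Txn1 stayed within 2-fold, at 0.53, 0.51, -0.18 and -0.31. Adh7, with 35 and 42 UMIs, and Aldh3a1, with 3 and 23, were not counted.

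In the pup 7 of 10 members differed, in a comparison where 24.1% of genes did. Adh7, Gsto1, Txn1 and Prdx6 were higher in squamous cells, with log2 ratios of 1.96, 1.80, 2.00 and 2.19. Aldh3a1, Gstm1 and Nqo1 were higher in columnar cells, with log2 ratios of -3.22 (-4.85 to -1.99), -1.60 and -1.71. Adh1, Gsta4 and Gpx2 stayed within 2-fold. Without the 2 second-label cells of that group, Gsto1 was at 1935 CPM in squamous cells against 985 in columnar cells, a log2 ratio of 0.98, which ends its call.

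**Figure D4:**
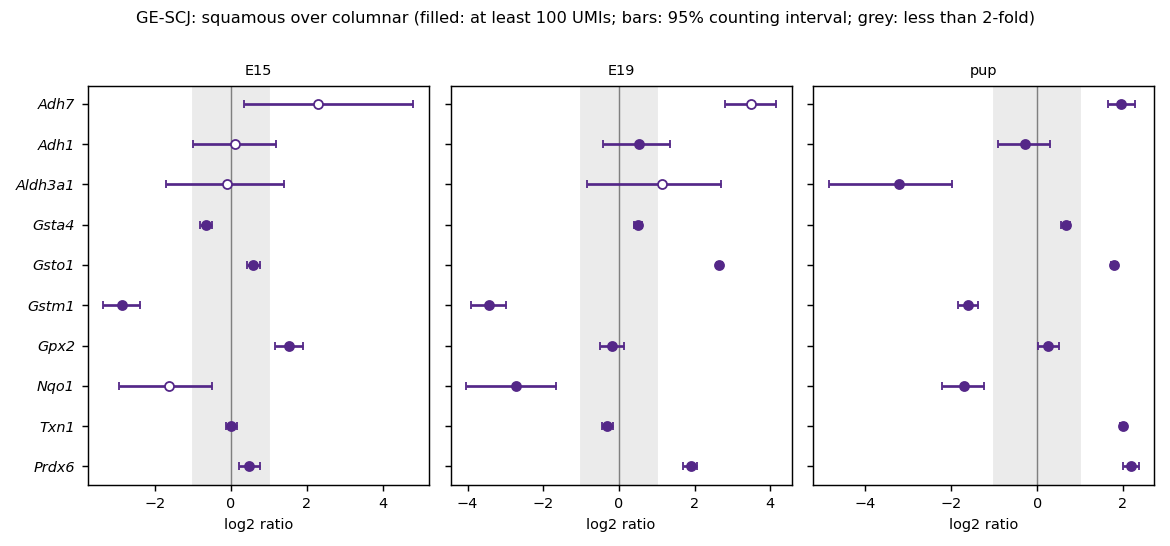
Log2 ratio of squamous to columnar cells of the GE-SCJ at 3 stages, with 95% counting intervals. Filled points had at least 100 UMIs, and the grey band marks less than 2-fold. Gstm1 lies left of the band at all 3 stages, and Txn1 leaves it only in the pup, at 2.00.

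The members also differed between cells of 1 class and stage. Squamous cells were ordered by the share of basal genes (Krt5, Krt14, Krt15, Col17a1 and Itgb4) among the UMIs of basal and suprabasal genes (Krt4, Krt13, Sbsn, Krtdap, Lor and Spink5), and equal numbers of cells from the top and the bottom of that order were compared, leaving out the middle. In the adult esophagus, with 77 cells each, Aldh3a1 was 140 CPM in basal-rich and 2656 CPM in basal-poor cells, a log2 ratio of -4.23 (-4.53 to -3.94). Gsta4 was 333 against 1931 CPM and Prdx6 167 against 402 CPM, also lower in basal-rich cells. Adh1 was 4.43 against 19.1 CPM from 3 and 34 UMIs, a log2 ratio of -1.73 (-3.69 to -0.25). Gstm1, Txn1, Adh7, Gsto1, Nqo1 and Gpx2 stayed within 2-fold, at log2 ratios between -0.96 and 0.36. For Prdx6 the sign varied with stage in the esophagus. It was higher in basal-rich cells at E15, at 1.11 (0.50 to 1.74), and in the pup, at 2.17 (1.41 to 2.98). At E19 it was lower there, at -0.94 (-1.33 to -0.57). At E15 even the basal-poor cells had basal shares of up to 83.9%, and the basal-rich cells of at least 94.2%. Of the 64 cells, 50 lay within 5 percentage points of either value. In the pup the basal-poor cells held 21778 of the 22545 Gsto1 UMIs, so that difference cannot be told apart from the one between the 2 labels. Whether the relation of Prdx6 to basal genes itself changed with stage was not tested.

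The adult GE-SCJ gave the same sign for Aldh3a1 and Gsta4, at -2.18 (-2.66 to -1.74) and -2.18 (-2.46 to -1.92). Gsto1 was there 719 CPM in basal-rich and 2622 CPM in basal-poor cells, a log2 ratio of -1.86 (-2.07 to -1.66). Without the 1 cell that held 1343 UMIs it became -0.62, a setting added after the data were seen. Of the 886 Gsto1 UMIs then left in basal-poor cells, 284 lay in the 1 second-label cell. The ratio without that cell as well was not computed. Nqo1 was higher in basal-rich cells, at 126 against 48.2 CPM. In the E19 esophagus the basal-poor cells held 10942 CPM of Gsto1 against 317, 1871 CPM of Gsta4 against 131 and 163 CPM of Adh1 against 11.6. Basal-rich and basal-poor are ends of a ranking and not types. In the adult esophagus the basal-poor cells had basal shares of at most 5.06% and the basal-rich cells of at least 81.7%, and 96 cells lay within 5 percentage points of either value, a number that the low boundary largely sets. Median depth was 7470 UMIs in basal-rich and 18810 in basal-poor adult esophageal cells, and columnar markers had a median of 885 and 456 CPM over those cells. The part of depth in these differences was not tested.

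Columnar cells were ordered in the same way by surface pit genes (Tff1, Gkn1, Gkn2 and Muc5ac) against gland genes (Pgc, Muc6, Atp4a, Atp4b and Cblif). In the pup stomach, with 117 cells each, Adh7 was 78.4 CPM in pit-rich and 1.64 CPM in pit-poor cells, a log2 ratio of 5.39 (4.40 to 6.62). Aldh3a1 was 95.7 against 5.15 CPM and Nqo1 463 against 58.0 CPM, with log2 ratios of 4.16 (3.55 to 4.83) and 2.99 (2.80 to 3.19). Gsto1, Gsta4 and Adh1 were higher in pit-rich cells by 2.11, 1.68 and 1.31 on the log2 scale. Gstm1, Gpx2, Txn1 and Prdx6 stayed within 2-fold.

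In the pup GE-SCJ the order was alike, with 5.32 for Adh7, 5.02 for Aldh3a1, 3.58 for Nqo1 and 2.06 for Gsto1, and Gstm1 reached 1.11. Before birth, in the E19 stomach, Nqo1 (2.89), Gsta4 (1.62) and Gsto1 (1.24) were already higher in pit-rich cells, whereas Adh7 was at 0.05 (-0.73 to 0.83) and Gpx2 was lower at -1.10. These names are relative as well. In the pup stomach pit-poor cells had pit shares of at most 0.701% and pit-rich cells of at least 4.02%, so that pit-rich cells could still hold mostly gland gene UMIs. With boundaries this low, 260 cells lay within 5 percentage points of either. Median depths were 25132 UMIs in pit-rich and 33075 in pit-poor cells, and squamous markers had a median of 63.0 and 65.8 CPM over them.

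**Figure D5:**
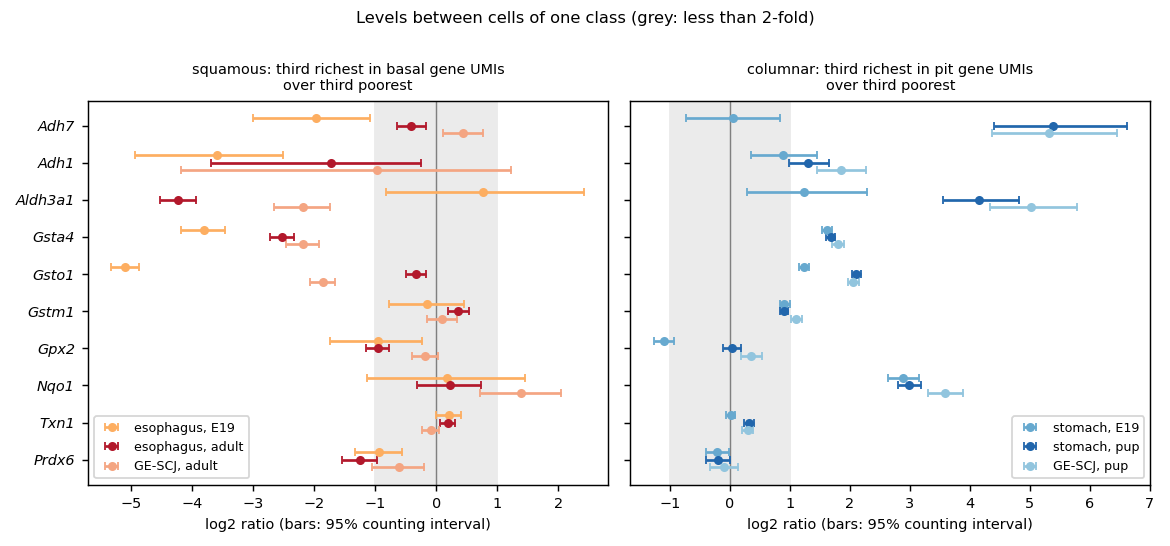
Left, log2 ratio between squamous cells with the most and the least basal gene UMIs in the E19 and adult esophagus and the adult GE-SCJ. Right, log2 ratio between columnar cells with the most and the least pit gene UMIs in the E19 and pup stomach and the pup GE-SCJ. Bars are 95% counting intervals and the grey band marks less than 2-fold. Aldh3a1 lies far left in adult squamous cells (-4.23 in the esophagus) and far right in pup columnar cells.

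Other genes of the same pathways were read from 6 lists of 119 genes, of which 116 are in the table. These lists too were chosen with earlier results of these data known, so their shares beside all genes are descriptions only. Of 58 counted in esophageal squamous cells, 19 were at least 2-fold higher in the adult than at E15 and 6 lower, where 11.3% of all genes were higher and 18.0% lower. Of 47 in the GE-SCJ, 16 were higher and 4 lower, beside 11.8% and 17.8% of all genes. Their median log2 ratios were 0.32 and 0.54, beside -0.38 and -0.31 over all genes. In the esophagus 6 of 9 other glutathione transferases were higher, led by Gsta2 (132 against 3.05 CPM), Gstm2 (243 against 26.5 CPM) and Mgst3 (340 against 103 CPM). Glrx, a glutaredoxin, was 206 against 9.16 CPM, Pgd of the pentose phosphate pathway 166 against 51.9 CPM, and Gsr, glutathione reductase, lower at 26.5 against 77.4 CPM.

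The remaining lists were mixed. Akr1b8, an aldo-keto reductase, was 37.1 against 1.02 CPM in the adult and at E15, Aldh3b2 162 against 14.2 CPM, and Adh5, the formaldehyde-handling dehydrogenase, 37.4 against 113 CPM. Of 14 other peroxidases and thioredoxin system genes, 2 were higher and 4 lower, with Prdx5 at 507 against 162 CPM, Txnrd1 at 29.9 against 94.7 and Gpx8 at 13.1 against 60.1. Nfe2l2 was 262 against 99.7 CPM, a log2 ratio of 1.38 (1.08 to 1.69), and Maff (-0.65) and Mafg (-0.30) stayed within 2-fold. Of the P450 and conjugation genes 4 of 8 were higher, including Cyp3a13 (31.2 against 1.02 CPM), Sult2b1 (222 against 17.3) and Cyp2s1 (231 against 23.4). Outside the esophagus Nfe2l2 stayed within 2-fold of E15, at 284 against 143 CPM in adult GE-SCJ squamous cells. In pup columnar cells Nfe2l2 was 192 against 247 CPM in the stomach and 166 against 221 in the GE-SCJ.

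In stomach columnar cells 30 of 92 counted pathway genes were at least 2-fold higher in the pup than at E15 and 6 lower, with a median of 0.26 beside -0.36 over all genes, and in the GE-SCJ 21 of 79 were higher and 6 lower. Over all 9333 genes counted in the stomach 8.97% were higher and 1769 genes were lower, and in the GE-SCJ 8.41% were higher and 19.3% lower. Akr1b8 was 84.5 against 2.07 CPM in the stomach, Aldh1a1, a retinal dehydrogenase, 185 against 15.8, and Cbr3, a carbonyl reductase, 239 against 28.0. Among transferases Gstk1 was 43.6 against 6.99 CPM, Gsta3 53.9 against 9.58 and Gsta1 596 against 113. Gclc and Gclm, the subunits of the rate-limiting enzyme of glutathione synthesis, were 188 against 53.9 and 112 against 39.6 CPM, and Gss, the next enzyme, 31.2 against 13.7 CPM.

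Prdx5 was 387 against 62.2 CPM in the same cells, Srxn1, which restores oxidised peroxiredoxins, 21.6 against 3.88, and Gpx7 lower at 3.33 against 17.6. Of 9 sensors and regulators 1 passed 2-fold, Mafk at 32.4 against 14.8 CPM, with Bach1 at 0.86 and Mafg at -0.65 on the log2 scale. Sult1c2, a sulfotransferase, was 77.1 against 5.18 CPM, Ephx2, the soluble epoxide hydrolase, 115 against 9.84, and Cyp2c55 11.1 CPM in the pup with no UMI at E15.

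At the GE-SCJ the other pathway genes were more often higher in columnar cells. Squamous cells were lower for 13 of 46, 28 of 74 and 31 of 80 from E15 to pup, and higher for 2, 6 and 4. Over all genes 6.09%, 11.7% and 16.3% were lower in squamous cells and 3.58%, 6.51% and 7.85% higher. Medians were -0.44, -0.55 and -0.56, beside -0.08, -0.13 and -0.06 over all genes. In the pup 8 of 13 other glutathione transferases were lower in squamous cells, led by Gstm7 (1.49 against 33.9 CPM), Gsta1 (85.1 against 716) and Gstt2 (7.46 against 49.3). Cbr1 was 43.3 against 402 CPM, Aldh3a2 8.96 against 49.9, Cbr3 50.8 against 222 and Glrx 7.46 against 64.8. The clearest exception was Cyp2f2, a P450 enzyme, at 439 CPM in squamous and 2.68 CPM in columnar cells.

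Further genes of those lists also differed in the pup GE-SCJ. Cat, catalase, was 20.9 against 81.9 CPM in squamous and columnar cells, Prdx3 19.4 against 60.5 and Txnrd2 2.99 against 12.4, the last with an interval that reached 0.10 on the log2 scale. Maff and Bach1 were lower in squamous cells at -1.67 and -1.36, whereas Keap1, which holds NRF2 in check, was 0.61, Glrx3 0.82 and Gclc -0.67. Sult1c2 and Ephx2 were 2.99 against 107 and 4.48 against 108 CPM.

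Likeness over the 14 epithelial groups was measured as Pearson's r of log2(CPM + 10) among 12237 genes, as a description without a test. The groups share 1 sequencing pool and differ in depth. Among the members, Gstm1 and Nqo1 had the highest r (0.86), followed by Gpx2 and Txn1 (0.75) and Adh7 and Aldh3a1 (0.74), and the lowest was -0.67 for Adh1 and Gpx2. The gene most like Adh7 was Entpd5 (0.953), followed by Chit1 and Spink5. For Aldh3a1 it was Lncpint (0.972), before Sdr9c7 and Teddm3. For Nqo1 it was Cbr3 (0.956), before Ech1 and Fut2, and for Gstm1 it was Sec11c (0.942), before Gstm2 and Sgpp1.

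Gsto1 was most like Clca3b (0.961), Gm9573 and Tmprss11g, and Txn1 most like Esd (0.947), Plaa and Mgst1. Gpx2 stood next to Sh3bgrl2 (0.937), Slmap and Tuba4a, and Prdx6 next to Hivep3 (0.912), Tmem123 and Mapkapk3. The 2 with the weakest partners were Adh1, with Egln2 (0.880), Ip6k1 and Parp6, and Gsta4, with Lmbrd2 (0.878), Icosl and Pold4.

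Promoters from RefSeq (GRCm38.p6), which span 250 bases before and 50 after a gene's start, were matched for 7 of the 10 members in 8 windows. Aldh3a1, Gsta4 and Prdx6 had none. The Adh1 window, 138277335 to 138277634, lies inside the gene span given above and not at its start. Sequence farther out was not searched, and 8 windows are too few to set the members apart from all promoters. None of the 8 held the core of the antioxidant response element, searched as TGACNNNGC on both strands, and 12.4% of all 32841 promoters did.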

How the data were processed

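Per the labels and methods, the authors sequenced tagged cells with 10x Genomics 3′ CellPlex, counted UMIs with Cell Ranger multi (6.1.1 in the submitters' processing notes) on the 10x mouse reference for GRCm38, and discarded barcodes outside set ranges of genes, UMIs and mitochondrial content, which also served against doublets. Raw UMI counts were deposited. The authors also deposited each cell's tag, class label and percent of mitochondrial UMIs, at most 19.7%. For all 7808 cells, tags were the same in both deposited lists, totals equalled the counts and barcodes were distinct. Tags held 2302227 to 20070615 UMIs, and cells 519 to 79817.

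UMIs were summed per class, region and stage for groups of at least 20 cells. Ratios, Poisson and Clopper-Pearson intervals (95%) used Python 3.11.15, numpy 2.4.6, scipy 1.17.1 and pandas 2.3.3, and figures matplotlib 3.10.9. Ratio scripts were tested on simulated data. Thinning to 5000 UMIs used seed 1 and left out shallower cells. No further doublets were removed. The members and gene lists were chosen with earlier results of these data known. All 10 members were named in each of the 7 main comparisons (last against first stage, and squamous against columnar cells of the GE-SCJ), the 3 genes of largest absolute log2 ratio in each pathway list for the comparisons given by gene, and the 3 most similar genes per member. Coordinates are those of GENCODE M21. Alternatives averaged CPM over cells, filtered cells (at least 1000 UMIs, at most 10% mitochondrial), left out the top 1% of cells per gene, cells with a Sox11 UMI or the second squamous label, changed library size, depth or classes, and moved the thresholds to 20 UMIs or 3-fold.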

Additional observations from a re-analysis of the deposited data

Results flagged for a closer look

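Txn1 moved in opposite directions in the 2 squamous regions after birth. The log2 ratio of pup to E19 was -1.12 in the esophagus and 1.81 in the GE-SCJ, and that of pup to E15 was -1.01 in the esophagus and 1.80 in the GE-SCJ. The difference between the regions was not tested, since each is 1 pooled sample. Second-label cells, 29 of the 85 pup esophageal squamous cells, held 52.3 CPM of Txn1 and first-label cells 454 CPM. Without the second label, the esophageal ratios were -0.50 and -0.35 and the GE-SCJ ratios 1.67 and 1.83, so that the signs stayed and the esophageal values came within 2-fold.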

How the results depend on the processing

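Over 8 alternatives, 293 values of the called ratios in the 7 main comparisons were recomputed and 0 changed sign. The median shift on the log2 scale ranged from 0.03 without the second squamous label to 0.24 after thinning to 5000 UMIs, and the largest was the fall of Aldh3a1 in esophageal squamous cells, adult against E15, from 6.43 to 2.36 when CPM was averaged over cells. Counts of called members at a 3-fold limit fell from 8 to 5 for GE-SCJ squamous cells, adult against E15, from 7 to 4 for GE-SCJ columnar cells, pup against E15, and from 2 to 1 for GE-SCJ squamous against columnar cells at E15, as the stricter limit must. The other 61 recomputed counts stayed within 1.5 times. Beyond the main comparisons, leaving out the second squamous label reversed Gsto1 in 3 ratios, to -1.94 for esophageal squamous cells, pup against E19 (from 2.21), to -1.14 for pup squamous cells, esophagus against GE-SCJ (from 2.76), and to -0.07 for pup esophageal squamous against stomach columnar cells (from 4.66). No paired analysis was possible because each group is 1 pooled sample. Depth limits every member with few UMIs. In GE-SCJ squamous and columnar cells together, Adh7, Adh1, Aldh3a1 and Nqo1 had under 100 UMIs at E15, and Adh7 and Aldh3a1 at E19.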

Other observations

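A squamous cell of the E19 esophagus, with 42421 UMIs, differed in several members from the summed level of the other 122 cells. It held 1320 CPM of Adh7 against 16.2 in the others, 1202 against 21.0 CPM of Gpx2, 919 against 53.4 of Gstm1, 2569 against 576 of Txn1, 212 against 14.4 of Nqo1 and 141 against 7.20 of Aldh3a1, 566 against 5131 CPM of Gsto1, and no UMI of Adh1. Gsta4 and Prdx6 were 872 against 914 and 165 against 238 CPM. Its levels of Adh7, Gpx2 and Txn1 were the highest of any cell in the group. Other single cells reached more Gstm1 (2107 CPM), Nqo1 (491 CPM) and Aldh3a1 (203 CPM). Its Gsto1 and Adh1 levels equalled the medians over single cells of the group, 566 and 0 CPM. Adh7, Gpx2, Gstm1, Txn1, Nqo1 and Aldh3a1 also had higher levels in adult than in E19 esophageal squamous cells, as had Gsta4 and Prdx6. Its squamous markers summed to 20697 CPM against 16648 in the others, and its columnar markers to 212 against 1945 CPM. The cell was singled out after its values were seen.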
